A study of Rattus norvegicus with 6 samples.

Results

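Tenascins and chondroitin sulfate proteoglycans are extracellular matrix proteins of the brain. A list of 10 was looked up by gene symbol, and 9 of the 10 matched a row among the 30560 genes of the deposited tables, namely Tnc, Tnr, Vcan, Ncan, Bcan, Acan, Cspg4, Cspg5 and Hapln1. Ptprz1 matched no symbol and was not analysed here. The data were single nucleus RNA counts from brains of 12 week old male WT Wistar rats, taken 48 h after the operation. In the MCAO rats a filament permanently blocked the right middle cerebral artery, and Sham rats had the same surgery without the filament. The 6 libraries were Sham_L and Sham_R, the left and right hemispheres of the same 4 rats, mMCAO_contra and mMCAO_ipsi, from 3 rats with moderate infarctions, and sMCAO_contra and sMCAO_ipsi, from 4 rats with severe infarctions. The ipsi libraries held the infarcted right hemisphere and the contra libraries the left hemisphere of the same animals. They were compared as Sham, MCAO contra and MCAO ipsi, with 2 libraries in each group. Nuclei of several rats were pooled in each library, so the spread between libraries is not a spread between rats, and severity differed within each MCAO group. The p-values measure the spread between these pooled libraries alone.

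The matrix of the brain is built on hyaluronan, a long sugar chain. Lecticans, the family of versican (Vcan), neurocan (Ncan), brevican (Bcan) and aggrecan (Acan), carry chondroitin sulfate chains and bind hyaluronan at their N-terminal end, and the link protein Hapln1 stabilises that bond. Tenascin-R (Tnr) and tenascin-C (Tnc) bind the C-terminal end of lecticans and so cross-link the network. Around fast-spiking inhibitory neurons the network condenses into perineuronal nets, of which Acan, Hapln1 and Tnr are core parts. After injury, chondroitin sulfate proteoglycans and Tnc gather in the glial scar, where chondroitin sulfate chains inhibit axon growth. Cspg4 (NG2) and Cspg5 (neuroglycan C) span the cell membrane instead, and Cspg4 is a classical marker of oligodendrocyte precursor cells (OPCs) and pericytes.

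Tnc, Ncan and Vcan RNA was higher in astrocyte nuclei of MCAO ipsi than in those of Sham, by 5.20-fold, 17.05-fold and 3.60-fold. Tnc was also higher in OPC nuclei, by 8.60-fold, while Vcan, which OPC nuclei carried in every library, did not differ in the OPC class as a whole. Bcan was lower in glutamatergic neurons of MCAO ipsi, at 0.44 of its level in Sham. The promoters of Tnc, Ncan and Vcan are shown because all 3 were higher in astrocytes of MCAO ipsi than in those of Sham. They are the 250 bases before the annotated start in RefSeq's GRCr8 assembly, read 5′ to 3′ on the gene's strand, while the counts were made on mRatBN7.2. Capitals mark matches, on either strand, to TATAA (present in 24.0% of 33469 promoters of this length) and GGGCGG (30.5%).
Tnc, chr5:82476132-82476381, minus strand: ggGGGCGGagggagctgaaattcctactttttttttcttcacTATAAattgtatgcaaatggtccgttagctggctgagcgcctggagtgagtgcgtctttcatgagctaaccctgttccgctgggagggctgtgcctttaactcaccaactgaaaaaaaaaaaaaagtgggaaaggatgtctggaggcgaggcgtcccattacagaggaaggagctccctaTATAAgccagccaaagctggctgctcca
Ncan, chr16:19335657-19335906, plus strand: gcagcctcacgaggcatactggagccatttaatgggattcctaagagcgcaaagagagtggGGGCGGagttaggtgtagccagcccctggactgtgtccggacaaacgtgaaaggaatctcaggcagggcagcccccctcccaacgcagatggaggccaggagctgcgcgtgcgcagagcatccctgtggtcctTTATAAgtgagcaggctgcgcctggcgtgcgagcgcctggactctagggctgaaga
Vcan, chr2:22595956-22596205, minus strand: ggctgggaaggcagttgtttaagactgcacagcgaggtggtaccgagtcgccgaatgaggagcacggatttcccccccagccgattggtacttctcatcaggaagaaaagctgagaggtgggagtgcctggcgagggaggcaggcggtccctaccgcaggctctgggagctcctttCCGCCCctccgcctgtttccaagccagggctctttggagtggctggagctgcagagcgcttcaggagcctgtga
Tnc held TATAA 23 and 203 bases before its start, Ncan held it on both strands 50 and 51 bases before its start, and the Vcan window shown did not hold it. GGGCGG lay 242 bases before the start of Tnc, 183 before that of Ncan and, on the other strand, 68 before that of Vcan. The letters TGANTCA (6.34% of promoters) and TTCNNNGAA (7.67%) were in none of these 3 windows. A match of letters is a description and not evidence that a factor binds. RefSeq entries were matched for 8 of the members, and a second entry for Vcan, whose window overlaps the one shown, held TATAA 27 bases before its start.

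The libraries held 8665 to 14491 nuclei after limits on UMIs (unique molecular identifiers, the counted molecules), genes and mitochondrial reads, 73649 in all, with median depths of 2059 to 3360 UMIs per nucleus. Pairs of libraries shared 118 to 281 barcodes. Each nucleus was given a class from fixed markers that held none of the members, and 86.22% of nuclei received one. The 10 leading genes of each of the 12 classes held 1 to 7 of the class's own markers and at most 1 of another class. RNA of neurons was present in glial nuclei. Scaled to the glutamatergic markers found there, it could make up as much as 41.4% of the UMIs of OPCs in Sham_L and 25.2% to 41.2% in the other libraries, and 14.5% to 33.6% of those of astrocytes. Levels are given as CPM, the UMIs of a gene scaled to 1000000 UMIs of that class and library, with exact 95% Poisson intervals in the plots. These intervals cover counting error only. In pairs of values Sham_L or the moderate library comes first. Levels of different genes are not compared, since they depend on length.

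Each gene had its own pattern of sources, and no class led in all of them. Tnc, Ncan, Bcan, Cspg5 and Hapln1 had their highest pooled level in astrocytes. Vcan, Acan and Cspg4 were highest in OPCs, and Tnr was highest in committed oligodendrocyte precursors (COPs), the stage between OPC and oligodendrocyte. The OPC level of Acan rested on 5 to 11 UMIs per library. PV-like interneurons, a subclass described later and not a class of its own here, held 347 Acan UMIs. Their pooled Acan level lay above that of OPCs. Mural cells, which include pericytes, had 178 CPM of Cspg4 beside 202 CPM in OPCs.

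**Figure D1:**
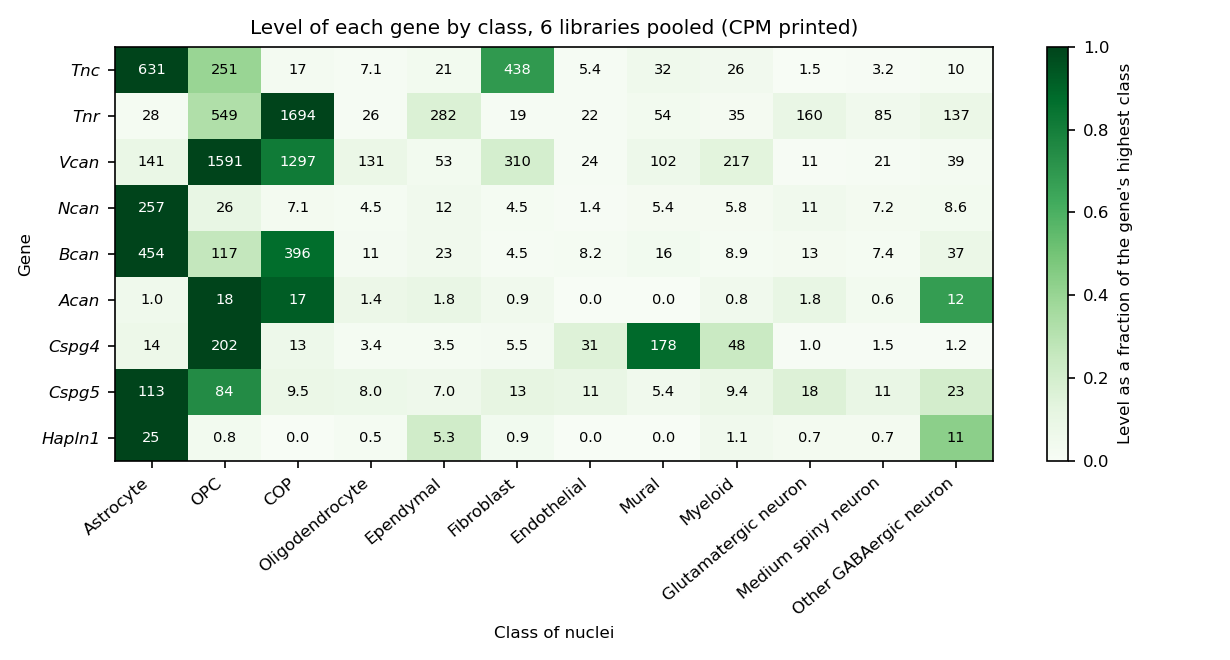
Level of each measured gene (rows) in each class of nuclei (columns), with UMIs of the 6 libraries pooled; the printed number is CPM and the colour is the level as a fraction of that gene's highest class. Astrocytes lead for 5 genes, OPCs for 3 and COPs for Tnr, which stands at 1694 CPM there.

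Neurons made up most nuclei, and the class with the highest level was often not the class that held most of the RNA. Glutamatergic neurons held 66.8% of the Tnr UMIs of classed nuclei (95% exact binomial interval 66.3 to 67.3), 57.1% of Cspg5 and 50.7% of Ncan. Other GABAergic neurons, a class that leaves out medium spiny neurons, held 63.6% of Hapln1 (59.5 to 67.6) and 55.7% of Acan (52.0 to 59.3). A glial class held the largest share of Cspg4, Vcan and Tnc. OPCs held 50.1% of Cspg4 and 37.6% of Vcan, and astrocytes held 50.7% of Tnc. Bcan was divided among glutamatergic neurons (31.9%), astrocytes (26.8%) and other GABAergic neurons (23.3%), and its leading class was astrocytes instead when a stricter gate or Leiden clusters set the classes. These shares leave out the nuclei without a class, which held between 8.63% (Hapln1) and 20.7% (Vcan) of a gene's UMIs.

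The sources shifted in the infarcted hemisphere. Ncan is the clearest case. Astrocytes held 1.08% of its UMIs in Sham_L and 0.687% in Sham_R, 3.91% and 5.86% in the MCAO contra libraries, 29.7% in mMCAO_ipsi and 69.6% in sMCAO_ipsi, where glutamatergic neurons held 17.3% after 69.7% in Sham_L. For Bcan the astrocyte share went from 10.5% and 10.6% in Sham to 37.3% and 55.7% in MCAO ipsi. For Hapln1 it was 3.26% in Sham_L and 51.9% in sMCAO_ipsi, although its level in astrocytes did not rise. Astrocytes held 3 and 6 Hapln1 UMIs in Sham. In mMCAO_ipsi they held 12 beside 65 in other GABAergic neurons, and in sMCAO_ipsi 41 beside 29. The Hapln1 shift was thus largest in the severe library. The number of nuclei moved with these shares. Astrocyte nuclei numbered 240 and 189 in Sham and 443 and 557 in MCAO ipsi, while glutamatergic nuclei numbered 5686 and 6323 in Sham, 5317 in mMCAO_ipsi and 1293 in sMCAO_ipsi. A share therefore mixes how many nuclei of a class were captured with how much RNA each held, and levels within a class are used from here on.

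**Figure D2:**
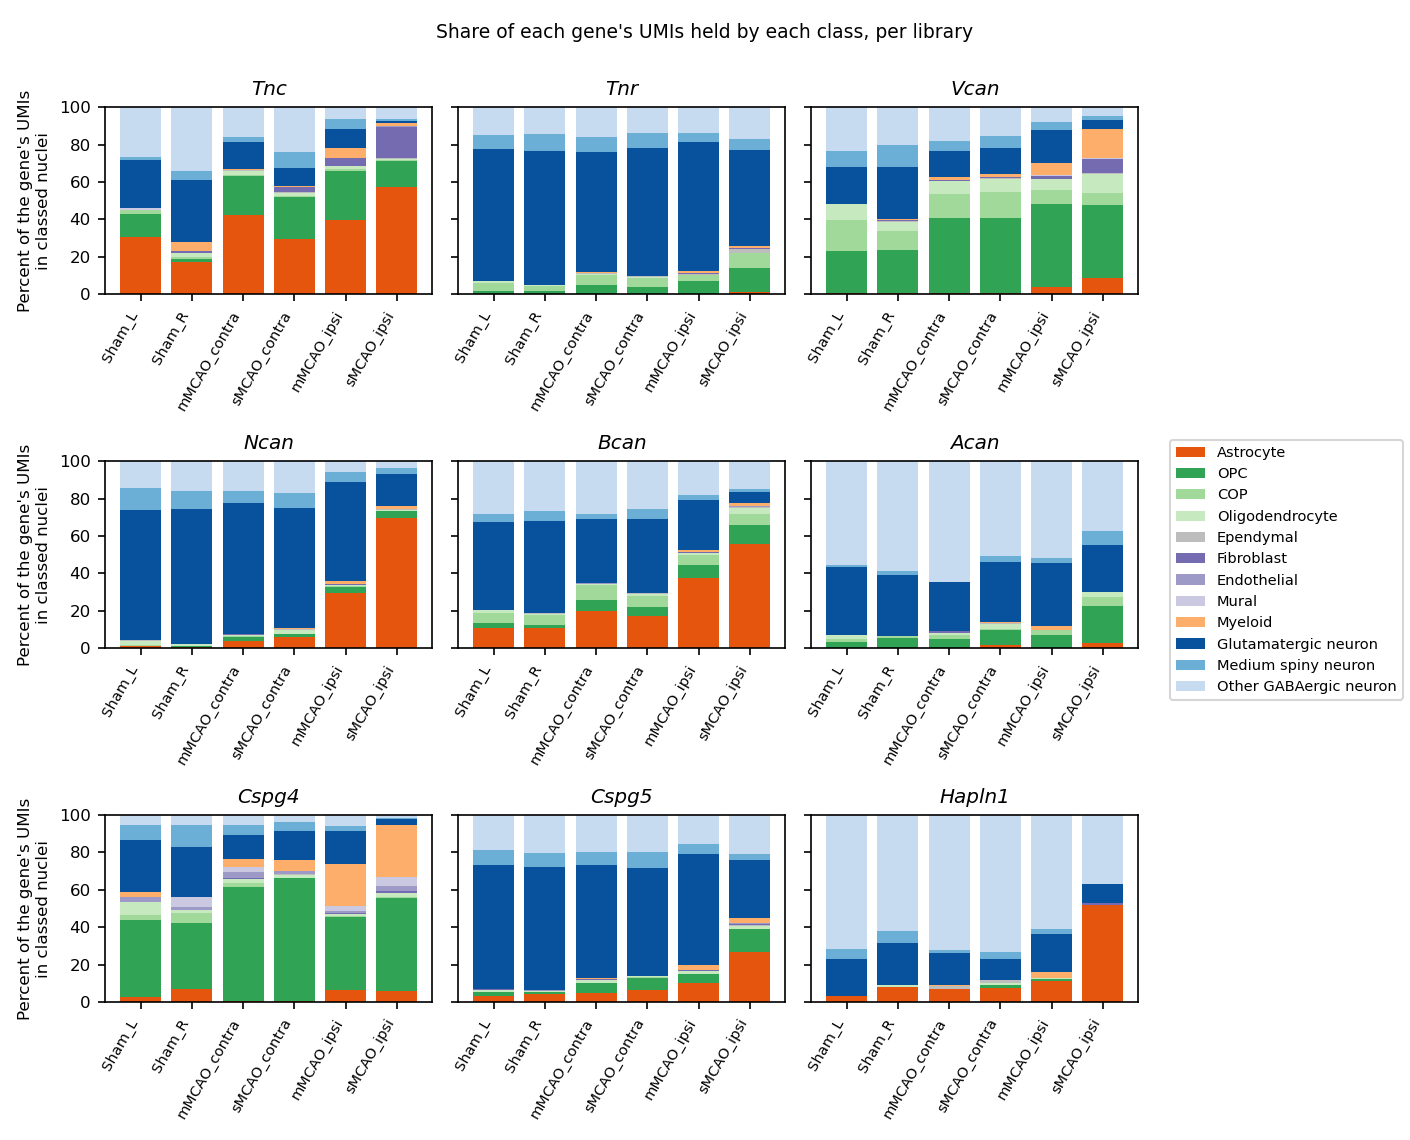
Stacked bars of the percent of each gene's UMIs in classed nuclei (y axis) held by each class, for the 6 libraries (x axis). Orange (astrocytes) grows in the 2 ipsi libraries for Ncan and Bcan, to 69.6% and 55.7% in sMCAO_ipsi, and dark blue (glutamatergic neurons) shrinks.

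Changes were tested in the 9 classes with at least 20 nuclei in every library, with edgeR's quasi-likelihood test on UMIs summed per class and library. A call needed an adjusted p under 0.05 and a log2 fold change of at least 0.6 in either direction. That gave 47 tests of a member in a class for each comparison, since a gene with too few counts in a class was not tested there, and no member was tested in endothelial nuclei. In MCAO ipsi against Sham 5 were higher and 4 lower, beside 6.63% of all genes tested in the 9 classes, and 23 had an unadjusted p under 0.05. In MCAO ipsi against MCAO contra 7 were higher and 4 lower, beside 4.26% of all genes, and 28 had an unadjusted p under 0.05. The share of all genes called ran from 1.03% in COPs to 16.1% in astrocytes against Sham in the classes where a member was tested, and the members were chosen with such results known. Both comparisons use the same 2 ipsi libraries. With 2 libraries per group, group values that do not overlap are a description and no further evidence. A fit that leaves out 1 library keeps 1 library in that group, so no spread within the group enters it. Calls kept, lost or gained in such a fit describe how far a value rests on 1 library and are no further evidence. In MCAO contra against Sham edgeR called 0 of the 47, beside 0.0521% of all genes tested in these classes, DESeq2's Wald test also called 0, and 11 had an unadjusted p under 0.05. The share of all genes called either way in a class is printed beside its first result and is called the background.

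**Figure D3:**
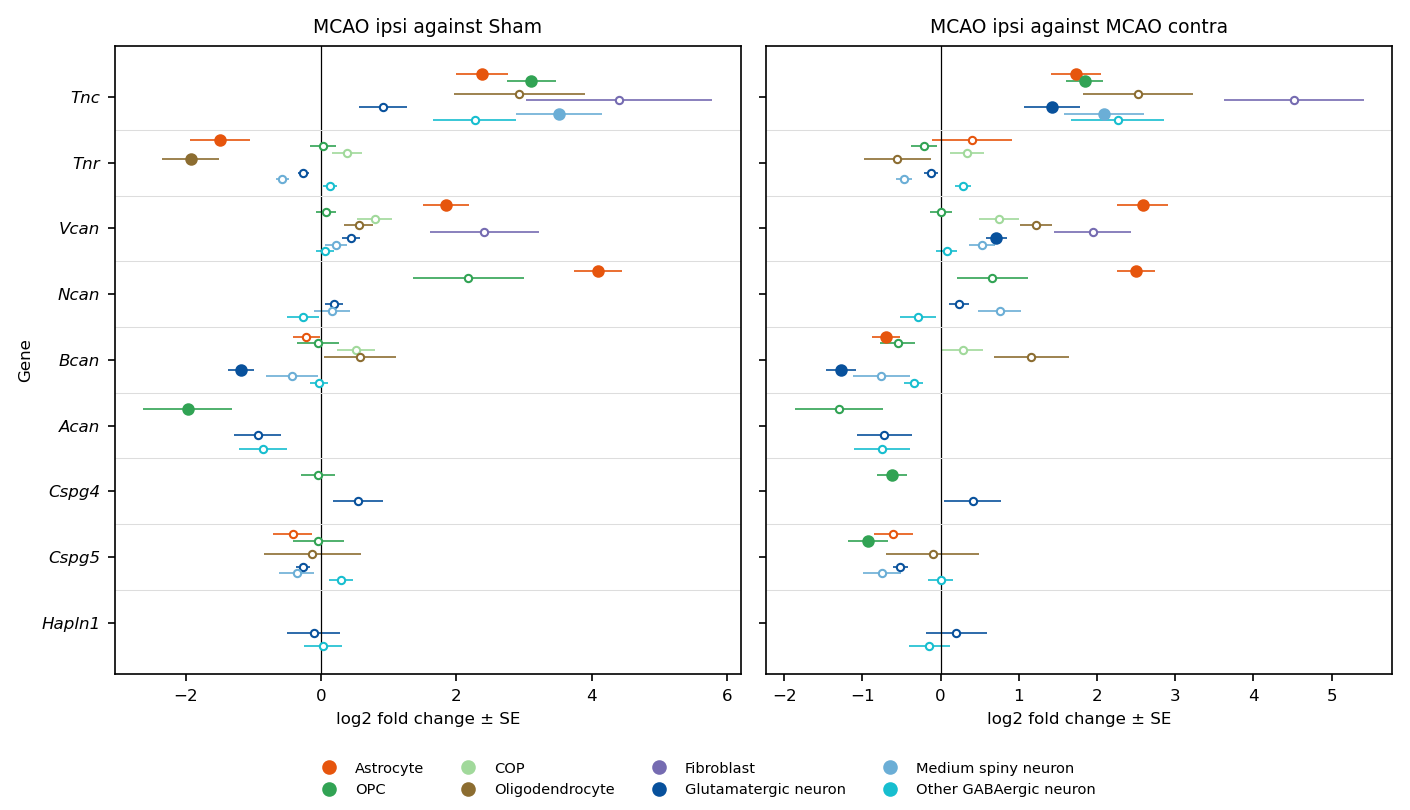
Log2 fold change with its standard error (x axis) of each member (rows) in each class where it was tested, for MCAO ipsi against Sham (left) and against MCAO contra (right). Filled circles passed the adjusted p and fold thresholds and open circles did not; the filled circles to the right of 0 are Tnc, Vcan and Ncan, and those to the left are Bcan, Tnr, Acan, Cspg4 and Cspg5.

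Tnc encodes tenascin-C, the hexameric tenascin of development and wounds. Astrocytes had 128 and 138 CPM in the Sham libraries, 224 and 187 in MCAO contra, and 408 and 991 in MCAO ipsi. Both ipsi libraries lay above all 4 others, and sMCAO_ipsi stood far above mMCAO_ipsi. The difference from Sham was 2.38 ± 0.38 (SE) on the log2 scale (edgeR adjusted p = 0.00106) and that from MCAO contra was 1.73 ± 0.32 (3.32-fold, edgeR adjusted p = 0.00278). In astrocytes 16.1% of all 6171 genes tested were called against Sham and 12.5% against MCAO contra. The call against Sham was lost without Sham_L (log2 2.33, adjusted p = 0.0508), and that against MCAO contra without mMCAO_contra (1.88, 0.059) or without sMCAO_contra (1.55, 0.0647), and the direction was kept in each.

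In OPCs Tnc had 59.2 and 14.7 CPM in Sham, 85.6 and 102.5 in MCAO contra, and 288 and 439.7 in MCAO ipsi, so the ipsi libraries again did not overlap with the rest. It rose by 3.10 ± 0.36 on the log2 scale against Sham (edgeR adjusted p = 1.3e-06) and by 1.84 ± 0.24 against MCAO contra (3.58-fold, adjusted p = 3.3e-06). The call held in all 17 alternatives against Sham and all 18 against MCAO contra. Of all genes tested in OPCs, 12.8% and 14.7% were called in these comparisons. The share of OPC nuclei with a proliferation signature, set by fixed mitosis genes such as Mki67 and Top2a, moved with Tnc. It was 5.52% and 3.37% in Sham, 6.16% and 7.12% in MCAO contra, and 38.4% and 42.4% in MCAO ipsi. In MCAO ipsi Tnc stood at 383.5 and 529.8 CPM in cycling OPC nuclei and at 184.6 and 333 CPM in the other OPC nuclei. Those other nuclei had 63.8 and 15.3 CPM in Sham and 69.2 and 22.9 CPM in MCAO contra. With the cycling nuclei left out, a fit added after the data were seen, Tnc in OPCs was still higher against Sham by 2.62 ± 0.47 on the log2 scale (edgeR adjusted p = 6.5e-04, background 6%) and against MCAO contra by 2.37 ± 0.35 (adjusted p = 1.2e-04, background 5.15%). Cycling OPC nuclei were few outside MCAO ipsi. The 22 of mMCAO_contra had 276 CPM of Tnc from 10 UMIs, the 19 of sMCAO_contra had 1021 CPM from 27 UMIs, and the 16 of Sham had 0 of 17464 UMIs, which is too few to set a level. Astrocyte markers in OPC nuclei summed to 3589 and 3359 CPM in Sham and to 1994 and 1616 CPM in MCAO ipsi. In astrocyte nuclei themselves the same markers summed to 29740 and 27650 CPM in Sham and to 24520 and 22110 CPM in MCAO ipsi. The markers were thus lower there too, in nuclei where Tnc was higher. The part of astrocyte RNA in the Tnc of OPC nuclei was not tested.

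Tnc was also present in fibroblast nuclei of MCAO ipsi. Fibroblasts had 0 and 62.0 CPM in Sham, 0 and 42.9 in MCAO contra, and 158 and 683 in MCAO ipsi, with 29 UMIs in mMCAO_ipsi and 448 in sMCAO_ipsi. The Sham values rest on 38 and 25 nuclei with 1 Tnc UMI between them. Astrocyte markers in fibroblast nuclei summed to 4959 and 6319 CPM in Sham and 4182 and 2804 CPM in MCAO ipsi, and their part in the Tnc values was not tested. The log2 difference of 4.41 ± 1.38 against Sham did not pass the correction (edgeR adjusted p = 0.134), nor did that of 4.51 ± 0.90 against MCAO contra (adjusted p = 0.0613). With the rat pool as a replicate block the latter was 4.36 with an adjusted p of 2.6e-04 and was called. The background in fibroblasts was 1.47% of genes called against Sham and 0.0578% against MCAO contra.

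**Figure D4:**
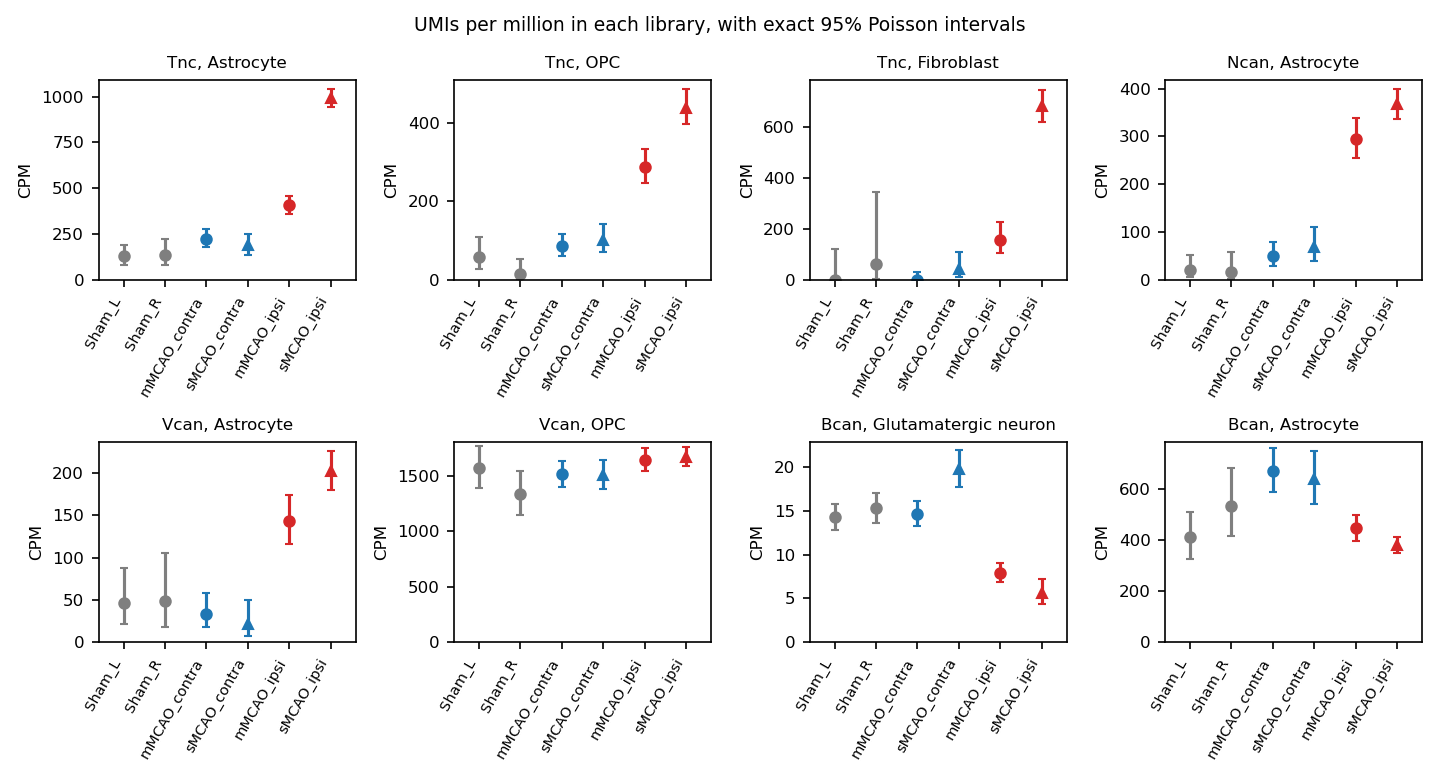
CPM in each library (y axis, from 0) with exact 95% Poisson intervals, for Tnc, Ncan, Vcan and Bcan in the classes named above each panel; grey is Sham, blue MCAO contra, red MCAO ipsi, and triangles are the severe libraries. Tnc in astrocytes reaches 408 and 991 CPM in the ipsi libraries, and Vcan in OPCs stays between 1335 and 1672 CPM in all 6.

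Neurons carried Tnc at low levels. SST-like GABAergic nuclei, named from Sst, Npy, Grin3a and Elfn1, had 6.45 and 29.9 CPM in Sham, 14.3 and 34.2 in MCAO contra, and 26.03 and 23.5 in MCAO ipsi. PV-like nuclei stayed between 0.715 and 4.12 CPM and CGE-like nuclei between 0 and 2.49 CPM, so the SST-like level was the highest of the 3 in every library and its groups overlapped. Medium spiny neurons, the projection neurons of the striatum, had 0.209 and 1.16 CPM in Sham, 0.867 and 3.38 in MCAO contra and 9.66 and 6.94 in MCAO ipsi. That was called against Sham (log2 3.52 ± 0.64, edgeR adjusted p = 0.00387, background 5.79%) and against MCAO contra (2.09 ± 0.52, adjusted p = 0.0246, background 4.05%). In glutamatergic neurons, at 0.814 to 2.55 CPM, Tnc was called against MCAO contra alone (1.42 ± 0.36, adjusted p = 0.0469, background 4.37%).

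These neuronal Tnc values depended on how nuclei were classed. Under the stricter gate the medium spiny values in MCAO ipsi were 3.79 and 0.953 CPM, and neither call was kept (adjusted p = 0.351 against Sham and 0.744 against MCAO contra). Without Sham_L the medium spiny call against Sham was lost as well (log2 2.74, adjusted p = 0.103), and without Sham_L, Sham_R, mMCAO_contra or mMCAO_ipsi that against MCAO contra was lost (adjusted p = 0.0513, 0.0534, 0.249 and 0.07), as it was with DESeq2's Wald test (0.192). The glutamatergic call was lost without any 1 of these 4 libraries or sMCAO_contra (adjusted p from 0.0531 to 0.242), and was kept in 6 of 17 alternatives. DESeq2's Wald test gave an adjusted p of 0.0844 and the fit of only the 2 groups compared 0.0708. Other GABAergic neurons had 42.9 CPM in sMCAO_ipsi, from 175 UMIs, of which PV-like, SST-like and CGE-like nuclei held 4, 11 and 1. The same library had 7.66 CPM, from 25 UMIs, when Leiden clusters set the class. The log2 difference in that class was 2.27 ± 0.62 against Sham (adjusted p = 0.0767, background 1.49%) and 2.26 ± 0.60 against MCAO contra (adjusted p = 0.184, background 0.111%), and the second was called with the replicate block (2.04, adjusted p = 5.3e-05).

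Tnr encodes tenascin-R, which oligodendrocyte-lineage cells and neurons place in perineuronal nets. COPs had the highest level in every library, at 1677 and 1420 CPM in Sham, 1507 and 1696 in MCAO contra and 1877 and 2127 in MCAO ipsi. OPCs had 467 to 679 CPM and glutamatergic neurons 149 to 179 CPM. None of these classes changed past the thresholds. COPs differed by 0.38 ± 0.22 on the log2 scale against Sham (edgeR adjusted p = 0.504, with 1.03% of genes called in COPs, and 1.07% against MCAO contra). In mature oligodendrocytes Tnr was at 55.9 and 67.9 CPM in Sham and fell to 25.2 and 9.56 CPM in MCAO ipsi, by 1.93 ± 0.42 on the log2 scale (adjusted p = 0.0284, background 7.16%). Astrocytes had 56.4 and 89.1 CPM in Sham and 26.8 and 24.5 in MCAO ipsi, and Tnr fell there by 1.49 ± 0.45 (adjusted p = 0.0354). MCAO contra was already at 19.98 and 26.8 CPM in oligodendrocytes and 13.8 and 25.5 in astrocytes.

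The estimated share of UMIs from neurons in these glia was also lower in both MCAO groups than in Sham. In oligodendrocytes it was 32.7% and 26.8% in Sham, 16.0% and 21.9% in MCAO contra, and 17.3% and 7.74% in MCAO ipsi. In astrocytes it was 31.7% and 33.6% in Sham, 22.2% and 20.7% in MCAO contra, and 16.5% and 14.5% in MCAO ipsi. The astrocyte share was thus lower in MCAO ipsi than in MCAO contra, while the astrocyte Tnr levels of these groups overlapped. Once that share was subtracted, 5 and 7 Tnr UMIs remained in oligodendrocytes of Sham and 0 in both MCAO ipsi libraries, too few to be tested. Both calls were also lost without Sham_L (adjusted p = 0.316 in oligodendrocytes, 0.124 in astrocytes), without Sham_R (0.199, 0.241) and without mMCAO_contra (0.0615, 0.056). The oligodendrocyte call was lost without sMCAO_contra (0.0614) and the astrocyte call without sMCAO_ipsi (0.135). With only the 2 groups in the fit the oligodendrocyte call was lost (0.0805), and with DESeq2's Wald test the astrocyte call (0.196). Medium spiny neurons went from 88.8 and 97.7 CPM in Sham to 70.2 and 63.1 in MCAO ipsi, without overlap. That drop of 0.57 ± 0.10 had an adjusted p of 0.00324 but was under the fold threshold.

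Vcan, the large lectican of precursor cells and of injured tissue, stood higher in OPCs and COPs than in mature oligodendrocytes. OPCs had 1569 and 1335 CPM in Sham, 1511 and 1505 in MCAO contra and 1644 and 1672 in MCAO ipsi. Those groups lay close together, and the log2 difference from Sham was 0.08 ± 0.15 (edgeR adjusted p = 0.813) and that from MCAO contra 0.01 ± 0.14 (0.986). COPs had 1254 and 899 CPM in Sham and 1663 and 2055 in MCAO ipsi, a log2 difference of 0.79 ± 0.26 that was not called (adjusted p = 0.18). Inside the OPC class the level differed with the proliferation signature. Non-cycling OPC nuclei had 1601 and 1359 CPM in Sham, 1537 and 1524 in MCAO contra, and 2242 and 2329 in MCAO ipsi, while cycling nuclei of MCAO ipsi had 1093 and 1114 CPM. The 2 ipsi values of non-cycling nuclei were thus above the 4 others, and the many cycling nuclei of those libraries were below them. With cycling nuclei left out, Vcan in OPCs differed by 0.59 ± 0.14 on the log2 scale from Sham (edgeR adjusted p = 0.00899) and by 0.53 ± 0.13 from MCAO contra (0.0172), both just under the fold threshold. Cycling against other nuclei was not tested.

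In astrocytes Vcan had 46.2 and 48.6 CPM in Sham, 33.2 and 21.2 in MCAO contra and 143 and 202 in MCAO ipsi. The ipsi libraries lay above the others without overlap. Vcan rose by 1.85 ± 0.34 on the log2 scale against Sham (edgeR adjusted p = 0.00241) and by 2.58 ± 0.32 against MCAO contra (5.99-fold, adjusted p = 2.0e-04). Without Sham_L the first of these missed the threshold (log2 1.82, adjusted p = 0.0823), and the second held in all 18 alternatives. Markers of OPCs summed to 353.9 and 396.7 CPM in Sham astrocytes and to 212 and 256 CPM in those of MCAO ipsi, while in OPC nuclei themselves they went from 8498 and 7986 CPM to 6930 and 6560. Their part in the Vcan values was not tested.

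Vcan was also found outside the oligodendrocyte lineage and astrocytes. Fibroblasts had 32.6 and 124 CPM in Sham, 57.9 and 118 in MCAO contra and 196 and 433 in MCAO ipsi, which was not called against Sham (log2 2.42 ± 0.80, edgeR adjusted p = 0.151). Against MCAO contra the difference was 1.95 ± 0.49 (adjusted p = 0.109), and the replicate block called it (1.80, adjusted p = 0.023). Glutamatergic neurons had 9.33 and 11.1 CPM in Sham, 8.60 and 9.88 in MCAO contra and 15.1 and 14.8 in MCAO ipsi, called against MCAO contra (0.71 ± 0.14, adjusted p = 0.0189) and not against Sham (0.45 ± 0.13, 0.0566). The first was lost without Sham_L (0.0541), Sham_R (0.0537), mMCAO_contra (0.176) or sMCAO_contra (0.113), and with only the 2 groups in the fit (0.0584) or the stricter gate (0.0805). CGE-like GABAergic nuclei, the interneurons marked by Adarb2, Vip and Lamp5, held 36.2% of the Vcan UMIs of other GABAergic neurons while making up 11.6% of its nuclei. They had 154 and 146 CPM in Sham and 124 and 151 in MCAO ipsi, and PV-like and SST-like nuclei stayed between 13.4 and 44.8 CPM.

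Myeloid nuclei, which include microglia and invading cells, were too few in Sham (9 and 13) to be tested. They had 109 and 154 CPM of Vcan in MCAO contra and 144 and 267 in MCAO ipsi. Within the class, a cluster of 1033 nuclei, 1013 of them from MCAO ipsi, had 586 CPM of Vcan (535 to 639) and 2.35 CPM of Cspg4. The largest cluster, of 1904 nuclei with 1596 from MCAO ipsi, had 56.2 CPM of Vcan (47.0 to 66.6) and 59.6 CPM of Cspg4. A further cluster of 139 myeloid nuclei, 100 from MCAO ipsi, had the oligodendrocyte-lineage genes Bcas1, Opalin and Mog among its leading genes. The same cluster held 213 OPC nuclei, 60 from Sham and 69 from MCAO ipsi, with Dock8 and Inpp5d among their leading genes. Its part in the values of these classes was not tested. In mature oligodendrocytes Vcan stood at 110 and 147 CPM in Sham and 154 and 208 in MCAO ipsi. A cluster of 743 nuclei there, 716 from MCAO ipsi, had 321 CPM and the main cluster of 5501 nuclei had 92.8 CPM. The oligodendrocyte log2 difference from Sham of 0.56 ± 0.21 (edgeR adjusted p = 0.156) turned to −0.01 when Leiden clusters set the class. The cluster of 743 nuclei was then among those left without a class, and its part in this was not tested. Against MCAO contra, where 0.107% of genes were called in oligodendrocytes, the log2 difference was 1.22 ± 0.20 (adjusted p = 0.073).

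Ncan, the nervous-system lectican neurocan, changed most against Sham among the members tested in astrocytes. Against MCAO contra Vcan changed more. Ncan had 20.5 and 16.2 CPM in Sham, from 4 and 2 UMIs, 49.9 and 67.9 in MCAO contra, and 295 and 367 in MCAO ipsi, from 198 and 570 UMIs. The library values of the 3 groups did not overlap, though those of Sham rest on few UMIs. Ncan rose by 4.09 ± 0.36 on the log2 scale against Sham (edgeR adjusted p = 1.6e-05) and by 2.50 ± 0.24 against MCAO contra (5.64-fold, adjusted p = 4.3e-05). Both calls held in each alternative, 17 against Sham and 18 against MCAO contra. The step from Sham to MCAO contra was not called in any of its 17 alternatives, with adjusted p from 0.133 up. Neuronal levels were not called different. Glutamatergic neurons had 10.2 and 10.5 CPM in Sham and 13.1 and 12.3 in MCAO ipsi, a log2 difference of 0.19 ± 0.13 (adjusted p = 0.354), and other GABAergic neurons had 6.87 to 9.599 CPM in the 6 libraries. OPCs had 5.92 and 7.33 CPM in Sham and 31.6 and 34.3 in MCAO ipsi, from 1, 1, 20 and 30 UMIs, which was not called (2.18 ± 0.82, adjusted p = 0.0824).

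Bcan, the lectican of mature perisynaptic matrix, went the other way in glutamatergic neurons. It was not called in either comparison in other GABAergic neurons (log2 −0.03 ± 0.13 against Sham, edgeR adjusted p = 0.92) or medium spiny neurons (−0.43 ± 0.38, 0.542). Glutamatergic neurons had 14.3 and 15.3 CPM in Sham, 14.7 and 19.8 in MCAO contra, and 7.89 and 5.64 in MCAO ipsi, below every other library. Bcan fell by 1.19 ± 0.20 on the log2 scale against Sham (edgeR adjusted p = 0.0101) and by 1.28 ± 0.20 against MCAO contra (adjusted p = 0.00995). The background in this class was 7.71% of genes called against Sham. Leaving out Sham_L or Sham_R ended the first call (log2 −1.23 and −1.16, adjusted p = 0.122 and 0.076), and leaving out mMCAO_contra or sMCAO_contra ended the second (−1.48 and −1.09, 0.0756 and 0.0953). In astrocytes Bcan had 410.3 and 534 CPM in Sham, 670.5 and 637 in MCAO contra and 446 and 379 in MCAO ipsi, so the ipsi libraries overlapped with Sham and not with MCAO contra. The log2 difference was −0.22 ± 0.20 from Sham (adjusted p = 0.519) and −0.70 ± 0.18 from MCAO contra (adjusted p = 0.0187). With Leiden clusters the astrocyte values were 396 and 368 CPM in MCAO contra and 363 and 351 in MCAO ipsi, and the call was gone (log2 −0.23, adjusted p = 0.441). It was also lost without mMCAO_contra (−0.66, 0.159) or sMCAO_contra (−0.80, 0.089) and with DESeq2's Wald test (−0.72, 0.0802), and without sMCAO_ipsi the difference of −0.57 was under the fold threshold.

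Perineuronal net genes met in the PV-like interneurons, the fast-spiking class. Here the subclass was named from Btbd11, Kcnc1 and Eya4, since Pvalb matched no symbol, and its nuclei were 32.6% of the other GABAergic class. They held 84.4% of its Acan UMIs (80.6 to 87.8), 67.5% of Hapln1 (62.4 to 72.3), 65.2% of Bcan (62.5 to 67.9) and 44.8% of Tnr (43.3 to 46.2), beside 33.5% of Cspg5 (30.2 to 37.0), which is near their share of nuclei. On the CPM scale, which sets depth aside, PV-like nuclei had 26.8 CPM of Acan (24.0 to 29.8) beside 2.16 in SST-like and 2.83 in CGE-like nuclei, and 158.9 CPM of Tnr (152 to 166) beside 115.6 and 90.0. Tnr was not particular to PV-like nuclei, since glutamatergic neurons had 149 to 179 CPM across the libraries. Hapln1 in Sham stood at 15.8 and 16.8 CPM in PV-like nuclei beside 12.2 and 10.1 in CGE-like nuclei. PV-like nuclei held 40.5% of the class's Ncan UMIs (34.8 to 46.4). In Sham Ncan stood at 7.91 and 11.9 CPM there, 10.75 and 18.2 in SST-like and 8.16 and 2.025 in CGE-like nuclei. For Ncan the order of PV-like and SST-like nuclei differed between libraries. By library, Tnr in PV-like nuclei was at 141 and 154.5 CPM in Sham, 145 and 138.6 in MCAO contra, and 209 and 180.0 in MCAO ipsi. Both ipsi libraries lay above the 4 others, with no test run on this subclass.

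**Figure D5:**
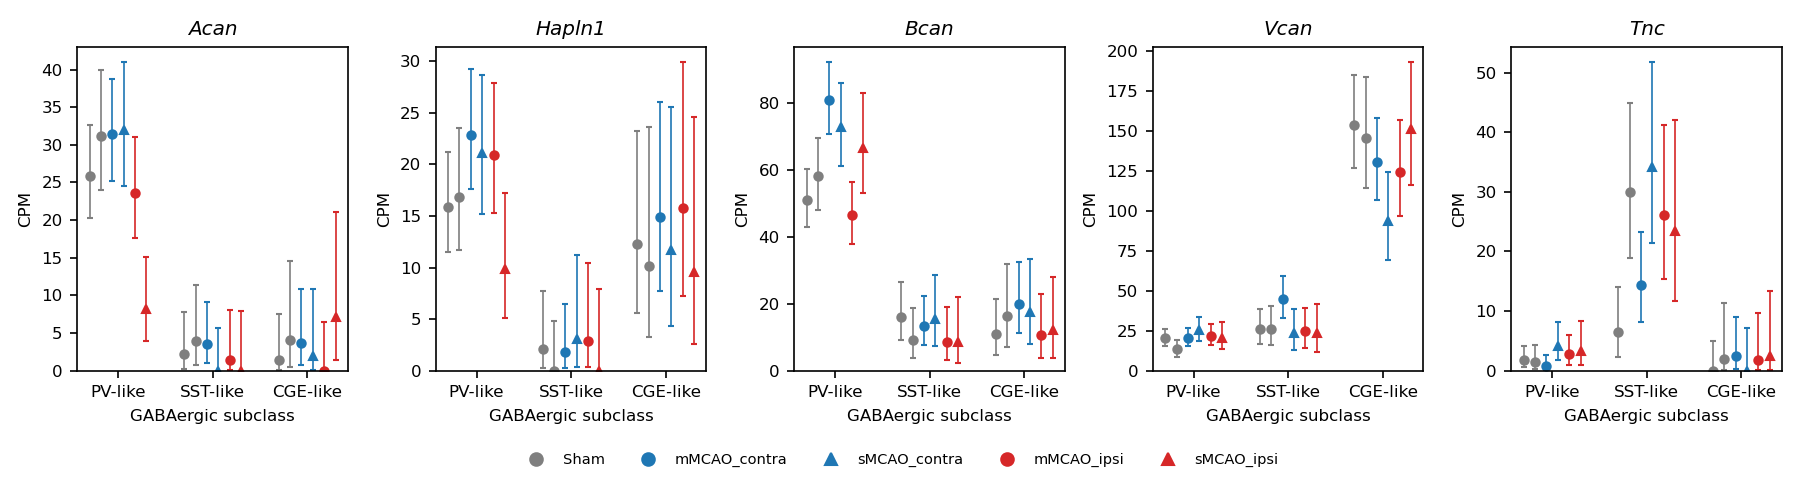
CPM (y axis) of Acan, Hapln1, Bcan, Vcan and Tnc in PV-like, SST-like and CGE-like GABAergic nuclei of each library, with exact 95% Poisson intervals; grey is Sham, blue MCAO contra, red MCAO ipsi, and triangles are the severe libraries. Acan and Bcan are highest in PV-like nuclei, Vcan in CGE-like nuclei and Tnc in SST-like nuclei, and Acan in PV-like nuclei drops to 8.22 CPM in sMCAO_ipsi.

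Acan encodes aggrecan, the lectican on which nets are assembled. PV-like nuclei had 25.9 and 31.2 CPM in Sham, 31.5 and 32.0 in MCAO contra, 23.6 in mMCAO_ipsi and 8.22 (3.94 to 15.1, from 10 UMIs) in sMCAO_ipsi. The severe library stood apart from the 5 others, and the moderate library lay close to Sham. PV-like nuclei themselves were 34.5% and 35.2% of the class in Sham, 36.0% in mMCAO_ipsi and 20.9% in sMCAO_ipsi. Over the other GABAergic class as a whole Acan had 12.8 and 15.01 CPM in Sham and 11.6 and 3.68 in MCAO ipsi, which was not called (log2 −0.86 ± 0.36, edgeR adjusted p = 0.22). That value turned on the ipsi libraries. Without mMCAO_ipsi it was −2.02 and without sMCAO_ipsi −0.27, each with 1 ipsi library left in the fit. With no filter on low counts it was called (−0.88, edgeR adjusted p = 0.00536). In OPCs Acan had 29.6 and 51.3 CPM in Sham, 17.6 and 33.2 in MCAO contra and 12.7 and 9.14 in MCAO ipsi, all from 5 to 11 UMIs. It was called lower against Sham (−1.97 ± 0.65, adjusted p = 0.0443) but kept that call in 4 of 16 alternatives. DESeq2's Wald test gave an adjusted p of 0.27, OPCs without cycling nuclei gave −1.18 (0.4), and the omission of any 1 library raised the adjusted p to between 0.0635 and 0.362.

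Hapln1, the cartilage-type link protein, was not called in any class or comparison. PV-like nuclei had 15.8 and 16.8 CPM in Sham, 22.9 and 21.1 in MCAO contra, 20.9 in mMCAO_ipsi and 9.86 (5.10 to 17.2) in sMCAO_ipsi. CGE-like nuclei had 9.59 to 15.7 CPM and SST-like nuclei 0 to 3.10 CPM in the 6 libraries. The other GABAergic class had a log2 difference of 0.03 ± 0.28 from Sham (edgeR adjusted p = 0.97). Astrocytes had 15.4 to 48.6 CPM from 3 to 41 UMIs per library, with overlapping groups, and were not tested in the main fit. With the rat pool as a replicate block their log2 difference from MCAO contra was −0.284 (edgeR adjusted p = 0.816) and was not called.

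Of the membrane-spanning members, Cspg4 (NG2) had its highest pooled level and its largest share of UMIs in OPCs. Myeloid nuclei held 50 and 104 of its UMIs in mMCAO_ipsi and sMCAO_ipsi, beside 88 and 187 in OPCs. OPCs had 184 and 154 CPM in Sham, 235 and 271 in MCAO contra, and 139 and 214 in MCAO ipsi. It was lower in MCAO ipsi than in MCAO contra by 0.62 ± 0.20 on the log2 scale (edgeR adjusted p = 0.0273), and did not differ from Sham past the threshold (−0.04 ± 0.25, 0.95). The call was lost without mMCAO_contra (−0.70, 0.12), sMCAO_contra (−0.55, 0.222) or mMCAO_ipsi (−0.38, 0.183), and with DESeq2's Wald test (−0.64, 0.523), the stricter gate (−0.60, 0.0687) or free RNA subtracted (−0.66, 0.176). With no filter on low counts the difference of −0.596 was under the fold threshold. Cycling OPC nuclei of MCAO ipsi had 106 and 148 CPM and the other OPC nuclei 175 and 291 CPM, beside 236 and 272 CPM in those of MCAO contra. With cycling nuclei left out the log2 difference was −0.14 ± 0.21 (edgeR adjusted p = 0.821). Mural nuclei, at 5 to 68 per library, had 0 to 282 CPM.

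Cspg5, a growth-factor-like proteoglycan of neurons and glia, showed the same order of groups as Cspg4 in OPCs. There it had 82.9 and 44.0 CPM in Sham, 120.8 and 118 in MCAO contra, and 52.2 and 82.2 in MCAO ipsi, lower against MCAO contra by 0.93 ± 0.25 (edgeR adjusted p = 0.0114). Leaving out mMCAO_contra (−0.87, 0.145) or sMCAO_contra (−0.96, 0.0627) ended this call, as did DESeq2's Wald test (0.48), the stricter gate (−0.69, 0.144) and subtraction of free RNA (−0.98, 0.113). Within MCAO ipsi its level was lower in cycling than in other OPC nuclei. Cycling OPC nuclei of MCAO ipsi had 24.4 and 54.9 CPM of Cspg5 and the other OPC nuclei 82.4 and 114.5, beside 119 and 118 CPM in those of MCAO contra. With cycling nuclei left out the difference was −0.30 ± 0.26 (edgeR adjusted p = 0.655). In glutamatergic neurons, its main source, Cspg5 had 16.9 and 16.8 CPM in Sham, 22.2 and 21.3 in MCAO contra and 14.6 and 15.7 in MCAO ipsi. The difference of −0.52 ± 0.10 from MCAO contra had an adjusted p of 0.019 and was under the fold threshold. Astrocytes had 98.3 to 174 CPM and no call.

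Summed over all nuclei of a library, 4 members were higher in MCAO ipsi than in Sham and 0 lower, where 13.2% of all genes were called. Tnc went from 2.37 and 3.72 CPM in Sham to 18.2 and 99.1 in MCAO ipsi (15.1-fold, edgeR adjusted p = 0.0249), Cspg4 from 2.32 and 2.16 to 6.05 and 13.0 (3.38-fold, 0.0224), Vcan from 35.5 and 31.4 to 67.8 and 143 (2.52-fold, 0.0264) and Ncan from 9.68 and 9.34 to 16.1 and 26.9 (1.83-fold, 0.028). Acan, at 4.17 and 4.18 CPM in Sham and 2.72 and 1.76 in MCAO ipsi, just missed the threshold (log2 −1.14 ± 0.32, edgeR adjusted p = 0.0554). It was called lower with DESeq2's Wald test (−1.16, 0.0113) and with no filter (−1.14, edgeR adjusted p = 0.0257). Without mMCAO_ipsi the Acan difference was −1.66 and without sMCAO_ipsi −0.76, each with 1 ipsi library left in the fit. More nuclei of a class and more RNA per nucleus cannot be told apart in these sums, and Cspg4 rose in the sum while its OPC level did not differ from Sham past the threshold. Against MCAO contra Tnc (10.96-fold, adjusted p = 0.0455) and Ncan (2.01-fold, 0.0338) were called, with a background of 4.75%, and Vcan was called with the replicate block (log2 1.11, adjusted p = 0.013) and not without it (1.16, 0.0544). All 6 calls were lost when either Sham library or either contra library was left out, and with only the 2 groups compared in the fit. They were not lost when either ipsi library was left out, but such a fit holds no spread between ipsi libraries.

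The moderate and severe ipsi libraries differed in the level of several members, with 1 library each and so no test. The ratio of sMCAO_ipsi to mMCAO_ipsi for Tnc was 2.43 (2.13 to 2.77) in astrocytes, 1.53 (1.28 to 1.83) in OPCs and 4.31 (2.96 to 6.51) in fibroblasts. In myeloid nuclei it went the other way, at 0.614 (0.394 to 0.962). For Vcan it was 1.41 (1.12 to 1.80) in astrocytes, 1.86 (1.55 to 2.23) in myeloid nuclei and 2.20 (1.55 to 3.21) in fibroblasts, and for Ncan in astrocytes 1.24 (1.06 to 1.47). Acan and Hapln1 were lower in the severe library. In other GABAergic neurons the ratio was 0.318 (0.168 to 0.569) for Acan and 0.549 (0.342 to 0.863) for Hapln1, while Bcan was at 1.34 (1.06 to 1.69). Intervals of the ratio of sMCAO_contra to mMCAO_contra also excluded 1 in places. Examples are Bcan in medium spiny neurons (2.13, 1.36 to 3.36) and Tnr in OPCs (0.689, 0.564 to 0.838). For Tnc this contra ratio was 0.832 (0.563 to 1.22) in astrocytes and 1.20 (0.733 to 1.95) in OPCs. The astrocyte share with a proliferation signature was 17.2% in mMCAO_ipsi and 28.6% in sMCAO_ipsi, after 0 to 1.16% in the other libraries. Tnc in astrocytes outside that signature was at 129 and 138 CPM in Sham, 209 and 176 in MCAO contra, 409 in mMCAO_ipsi and 973 in sMCAO_ipsi, so the severe library stood above the moderate one there too. With cycling nuclei left out, Tnc in astrocytes was higher against Sham by 2.35 ± 0.35 on the log2 scale (edgeR adjusted p = 3.5e-04, background 12.6%) and against MCAO contra by 1.79 ± 0.30 (0.00112, background 8.88%). The intervals cover counting error only and say nothing of the spread between rats.

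Other genes of the same matrix pathway were taken from a fixed list of 49 symbols, of which 48 matched. In astrocytes 10 of 21 tested were higher and 2 lower in MCAO ipsi than in Sham, with a median log2 difference of 0.69 beside 0.04 over all genes tested and a background of 16.1%. DESeq2's Wald test called 6 of the 21 in place of 12. Cd44, the hyaluronan receptor, rose from 10.3 and 16.2 CPM in Sham astrocytes to 483 and 616 in MCAO ipsi (log2 5.39 ± 0.36, edgeR adjusted p = 3.2e-06). Hmmr, a hyaluronan-binding protein of the mitotic spindle, was at 0 in both Sham libraries and at 71.5 and 94.6 CPM in MCAO ipsi (adjusted p = 7.1e-04), and Adamts1, a protease that cuts lecticans, went from 0 and 8.10 to 35.8 and 45.0 CPM (adjusted p = 0.0217). Lower in astrocytes were Ptprd, a receptor-type phosphatase (log2 −1.49, adjusted p = 4.7e-04), and Chsy3, a chondroitin synthase (−0.97, 0.0217). Both stood higher in glutamatergic neurons of Sham. Ptprd had 14680 and 14590 CPM there beside 3816 and 3563 in astrocytes, and Chsy3 1017 and 1009 beside 261.5 and 153.8. The estimated neuronal share of astrocyte UMIs went from 31.7% and 33.6% in Sham to 16.5% and 14.5% in MCAO ipsi. Its part in these falls was not tested.

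In OPCs 6 of 28 pathway genes were higher and 4 lower against Sham, with a median log2 difference of −0.08 beside 0.02 over all genes tested and a background of 12.8%. DESeq2's Wald test called 5 of the 28 in place of 10. Adamts9, another lectican protease, was at 0 in both Sham libraries and at 180 and 158 CPM in MCAO ipsi (edgeR adjusted p = 4.2e-06). Cd44 went from 0 and 7.33 to 90.2 and 155 CPM (log2 5.03 ± 0.75, adjusted p = 3.0e-05) and Hmmr from 23.7 and 44.0 to 117 and 121 CPM (1.74 ± 0.40, adjusted p = 0.00292). Xylt2, which starts the chondroitin chain (−2.69, adjusted p = 0.0372), Ptprd (−1.89, 1.2e-06) and Chsy3 (−1.59, 6.7e-06) were lower. Xylt2 was at 29.6 and 29.3 CPM in Sham and 7.91 and 2.28 in MCAO ipsi. Xylt1, of the same family, was at 1966 and 1826 CPM in Sham and 1802 and 1955 in MCAO ipsi. Ptprd and Chsy3 stood higher in glutamatergic neurons than in OPCs of Sham. The estimated neuronal share of OPC UMIs was 41.4% and 41.2% in Sham and 25.9% and 33.8% in MCAO ipsi. Its part in these falls was not tested.

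In glutamatergic neurons 5 of 46 pathway genes were higher and 2 lower against Sham (background 7.71%), with a median log2 difference of −0.28 beside 0.01 over all genes tested, and DESeq2 called 6. The rises were led by Tnfaip6, a hyaluronan-binding protein of inflammation (log2 3.18 ± 0.54, edgeR adjusted p = 0.0108), Cd44 (1.85, 0.0125) and Adamts1 (1.83, 0.0428). The falls were Itga8, an integrin chain (−1.01, 0.00234), and Chst15, a chondroitin sulfotransferase (−0.88, 0.00801). In other GABAergic neurons 2 of 39 were called (background 1.49%, median −0.09 beside 0.01), with Chst15 lower (−0.80, 0.02) and Cd44 higher (2.22, 0.0438), and DESeq2 also called 2. In medium spiny neurons edgeR called 2 of 33 (background 5.79%, median −0.12 beside 0.001), Cd44 higher (1.51, 0.0487) and Itga8 lower (−0.95, 0.0344), and DESeq2 called 0. In oligodendrocytes edgeR called 5 of 27 (background 7.16%, median −0.45 beside 0.03) and DESeq2 2. Adamts4 was higher (0.83, 0.0418) and 4 were lower, among them Rtn4rl1 (−2.89, 0.0281), Chst15 (−2.32, 0.0387) and Nrcam (−1.47, 0.0314). In Sham_L these had 104.6, 50.1 and 1294 CPM in glutamatergic neurons beside 21.1, 19.0 and 368 in oligodendrocytes. The estimated neuronal share of oligodendrocyte UMIs went from 32.7% and 26.8% in Sham to 17.3% and 7.74% in MCAO ipsi. Its part in these falls was not tested. In COPs edgeR called 0 of 15, with 3 at an unadjusted p under 0.05 and 0 called by DESeq2, and in fibroblasts 0 of 17, with 4 and 1.

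The genes whose pattern was most like that of a member were ranked by Pearson's r on log2(CPM + 5) over 54 points, the 9 tested classes in the 6 libraries, among 13592 genes. The points share libraries and classes, so r is a description. Nxph1, Grin3a and Apbb1ip also served as markers of classes or subclasses. For Tnc they were Cd44 (0.843), Cdca2 (0.826) and Gtse1 (0.822), and for Ncan Fam181b (0.818), Efhb (0.815) and Arhgef26 (0.783). Bcan was most like Gpr37l1 (0.873), Ctxnd1 (0.861) and Sox6 (0.858), and Vcan like Apbb1ip (0.906), Abtb2 (0.894) and Rbpjl (0.879). Among the net genes, Acan ran closest to Nxph1 (0.804), Armh4 (0.785) and Grin3a (0.77), Hapln1 to Lypd6 (0.878), AABR07005985.1 (0.867) and Mmel1 (0.865), and Tnr to AABR07021536.1 (0.909), Opcml (0.906) and Sema5a (0.862). Cspg4 was nearest to Disc1 (0.828), Calcrl (0.812) and Fam89a (0.804), and Cspg5 to Rfx4 (0.787), Nr2e1 (0.779) and Tagln3 (0.778).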

How the data were processed

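Nuclei of 3 or 4 rats were pooled for each of the 6 libraries, extracted on an iodixanol gradient and prepared with a 10x 5′ kit. The authors aligned the reads with Cell Ranger 7.0.0 to mRatBN7.2 and deposited UMI counts per gene and nucleus, without normalization. No map from nuclei to rats was used. The libraries held 33012945 to 52513380 UMIs. The members, the gene lists and the classes were chosen with earlier results of these data known, and the rule that turns marker counts into classes was set after the data were seen.

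Nuclei with at least 500 UMIs, 250 to 5000 genes and at most 5% mitochondrial UMIs were kept. Marker UMIs were pooled over each nucleus and its 15 nearest neighbours, found on 30 principal components of 2968 variable genes without members or pathway genes. A nucleus took the class with the highest marker score where that score was at least 0.15, the next score was at most 0.75 of it and at least 10 marker UMIs were pooled. That left 2683 nuclei ambiguous and 7467 without a class. Doublets were not removed from the main results, and leaving out the 5% of nuclei with the highest simulated-doublet score per library was an alternative. Leaving the nuclei with a proliferation signature out of OPCs and astrocytes was another, chosen after seeing the data.

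Counts were summed per class and library and tested with edgeR 4.0.16 (quasi-likelihood, TMM, filterByExpr) in R 4.3.3, all 6 libraries in 1 fit and with Benjamini-Hochberg adjustment over all genes of a class and comparison. The fit was checked on simulated counts. DESeq2 1.42.0 was an alternative, and scanpy 1.11.5 built the clusters. An exact permutation test of 2 against 2 libraries cannot go below a two-sided p of 0.333, so none was used. By the labels the contra and ipsi libraries of a severity share their rats, and their severe-minus-moderate deviations correlated at 0.179 across genes in whole libraries and at −0.048 to 0.128 within classes. All members were named, and of the pathway list at most the 3 largest rises and falls per class against Sham. Xylt1 was added beside Xylt2. For likeness the 3 genes with the highest r were named.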

Additional observations from a re-analysis of the deposited data

Results flagged for a closer look

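Some signal lay in nuclei that no comparison used, because they fell between classes or reached none. In nuclei left ambiguous between classes, Tnc was at 42.3 CPM in mMCAO_ipsi and 332 CPM in sMCAO_ipsi, against 3.60 and 5.11 CPM in the Sham libraries. Nuclei without a class had 17.04 and 27.7 CPM of Tnc in the same MCAO ipsi libraries, against 4.15 and 6.73 CPM in Sham. Vcan was at 250.3 and 440.4 CPM in ambiguous nuclei of mMCAO_ipsi and sMCAO_ipsi, against 96.5 and 82.4 CPM in Sham. In nuclei without a class Vcan was at 92.5 and 83.2 CPM, against 58.6 and 56.0 CPM in Sham. These values were singled out because the Poisson intervals of both MCAO ipsi libraries lay above those of both Sham libraries. Which cells these nuclei were was not tested.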

How the results depend on the processing

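Of the alternatives tried for tests of a member in a class or whole library, 331 kept a call and 104 lost it, and among results not called 770 stayed so, 67 gained a call and 10 turned direction. Against Sham the 9 calls per class became 16 with no filter on low counts and 3 to 17 when 1 library was left out, with 3 without Sham_L, 5 without Sham_R and 17 without mMCAO_ipsi. Against MCAO contra the 11 calls became 17 with no filter, 7 with DESeq2's Wald test, 6 under the stricter gate and 3 to 18 when 1 library was left out (3 without mMCAO_contra, 6 without sMCAO_contra, 18 without mMCAO_ipsi). With the rat pool as a replicate block, which rests on the shared rats, they became 14, and the block ended no call. The high counts without mMCAO_ipsi came from fits with 1 ipsi library, which hold no spread between ipsi libraries. For MCAO contra against Sham the 0 calls became 1 with no filter, 2 with only the 2 groups compared and 0 to 2 when 1 library was left out.

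In whole-library sums the 4 calls against Sham became 0 with only the 2 groups compared and 0 to 6 when 1 library was left out. The 2 calls against MCAO contra became 0 and 0 to 5, and the 0 calls of MCAO contra against Sham became 1 and 0 to 1. The leading class was kept for 8 of 9 members under the stricter gate and 8 under Leiden clusters. Vcan in oligodendrocytes turned from 0.56 to −0.007 (log2, against Sham) under Leiden clusters, and the severe to moderate ratio of Vcan in COPs from 1.24 to 0.741 under the stricter gate. Vcan in OPCs, at 0.08 against Sham, was −0.045 (without Sham_R) to 0.26 when 1 library was left out and −0.109 with free RNA subtracted. Against MCAO contra, where it was 0.01, it was −0.014 with only the 2 groups compared, −0.014 with the replicate block, −0.015 (without Sham_R or sMCAO_contra) to 0.043 when 1 library was left out, −0.065 under Leiden clusters and −0.03 with free RNA subtracted. Bcan in OPCs turned to 0.04 against MCAO contra with cycling nuclei left out, an alternative chosen after seeing the data. The cause of these changes was not tested. Depth limits members with few UMIs, such as Hapln1 (614 in all), Acan (855) and Cspg4 (1248), and the pooling of rats leaves no spread between animals.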
